A study of Homo sapiens with 6 samples.

Results

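Genes of glycolysis and of the response to low oxygen were followed in DLD1 cells in which a short hairpin RNA (shRNA) targeted the kinase gene CDKL1. The set held 38 listed genes: 17 genes of glycolytic enzymes, 7 of glycolytic control and transport, 3 of oxygen sensing and 11 further genes of the hypoxia response. Each was read from a probe set annotated with exactly 1 gene symbol, and where a gene had several, from the one with the highest mean over all arrays. Values were obtained for 36 of the 38, out of 18132 genes read this way, and SLC16A3 and CA9 were not analysed here. DLD1 is an established human colorectal adenocarcinoma line, and it was infected with lentivirus carrying a control shRNA (3 samples) or CDKL1 shRNA (3 samples), with no other genotype or treatment given. Both groups therefore carried a lentivirus and a hairpin, the labels name no uninfected cells, and they do not say how many hairpins against CDKL1 were used or how long after infection cells were taken. Total RNA of each sample was hybridised to 1 Affymetrix expression array, and values are log2 levels after RMA normalisation.

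Glycolysis splits glucose into pyruvate in a chain of cytosolic enzymes, and lactate dehydrogenase turns pyruvate into lactate. The flow is set largely at phosphofructokinase, which is activated by a sugar bisphosphate that the PFKFB enzymes make and break down. The oxidation of pyruvate inside mitochondria, by pyruvate dehydrogenase, is restrained by PDK kinases. Cells short of oxygen stabilise hypoxia-inducible factor (HIF), because the prolyl hydroxylases of the EGLN family that mark it for destruction need oxygen, and HIF then raises transcription of many glycolytic genes, of angiogenic factors and of EGLN3 itself. Colorectal cancer cells commonly run glycolysis at a high rate even with oxygen present.

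The arrays of a group correlated at r = 0.99758 to 0.99844 across probe sets, and those of different groups at r = 0.99510 to 0.99610. Of 14 epithelial and colorectal marker genes 13 lay above the range of the background controls with up to 16 G or C bases (mean log2 levels up to 4.92), EPCAM at 13.53, KRT18 at 14.25 and CDX2 at 10.69, while CEACAM5 (4.10) lay within it. KRT20 rose by 0.52 and TFF3 by 0.43, VIL1 fell by 0.57, and the summed linear level of the 14 was 68883 to 69487 in control arrays and 65556 to 66900 in CDKL1 shRNA arrays. The leukocyte marker PTPRC (3.55) was within that range too. Of 7 measured leukocyte markers, CD68 (0.39) and CD163 (0.65) rose, 4 had negative changes that did not pass, the median was -0.04 and 3, CD163 among them, lay within the background range, and the summed linear level of the 7 went from 299 to 320 in control arrays to 338 to 365 in CDKL1 shRNA arrays, and the part of these marker differences in the results was not tested. None of 8 fibroblast and 5 endothelial markers passed. In such bulk RNA, fewer cells of a type and less RNA per cell cannot be told apart. CDKL1 itself was read at 4.51, 4.42 and 4.17 in control arrays and 4.25, 4.20 and 4.08 in CDKL1 shRNA arrays, which overlap and lie within the background range, and its log2 change of -0.19 did not pass (limma, adjusted p = 0.219), so the array does not check the knockdown. With 1 array left out it passed in 1 of 6 fits, that without control replicate 3 (-0.29, limma adjusted p = 0.0489). Over the 6 fits its change ran from -0.29 to -0.12 (limma adjusted p up to 0.459). RNA quality was read from ACTB controls as the level at the transcript's 3' end less that at its 5' end, on the log2 scale, which was 1.40, 1.41 and 1.39 in control arrays and 1.52, 1.73 and 1.55 in CDKL1 shRNA arrays (difference 0.198, exact two-sided permutation p = 0.1, the smallest that 3 against 3 arrays allow).

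In CDKL1 shRNA arrays 16 of 17 glycolytic enzyme genes did not pass the test, and genes that control glycolysis and genes of the hypoxia response moved in both directions. At the threshold of 0.05 on the limma p, adjusted by Benjamini-Hochberg over all 18132 genes, 12 of the 36 measured genes changed, which is 33.3% against 16.8% of all genes. Of these 7 rose, where 8.97% of all genes did, and 5 fell, where 7.79% did. The share of all genes includes dim ones: 3232 of the 18132 lay within the background range, and none of the 36 did. When only the 9066 genes above the median level were tested, 44.0% of them passed. Of the measured set the same 12 and HIF1A did, a share below that 44.0%. Beside genes above the median level, the set thus held no excess of called genes. By role, 1 of 17 glycolytic enzyme genes passed, 3 of 6 of glycolytic control and transport, 1 of 3 of oxygen sensing and 7 of 10 of the further hypoxia response. The median log2 change of the 36 was -0.02, beside -0.01 for all genes, and the median size without sign was 0.08, beside 0.09. The 3 arrays of the groups did not overlap for 20 of the 36, 11 higher and 9 lower, against 35.7% of all genes. Only PFKFB2 changed at least 1.5-fold among the 12. The set was chosen with earlier results of these data known, so these counts describe it and are not a test of it.

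**Figure D1:**
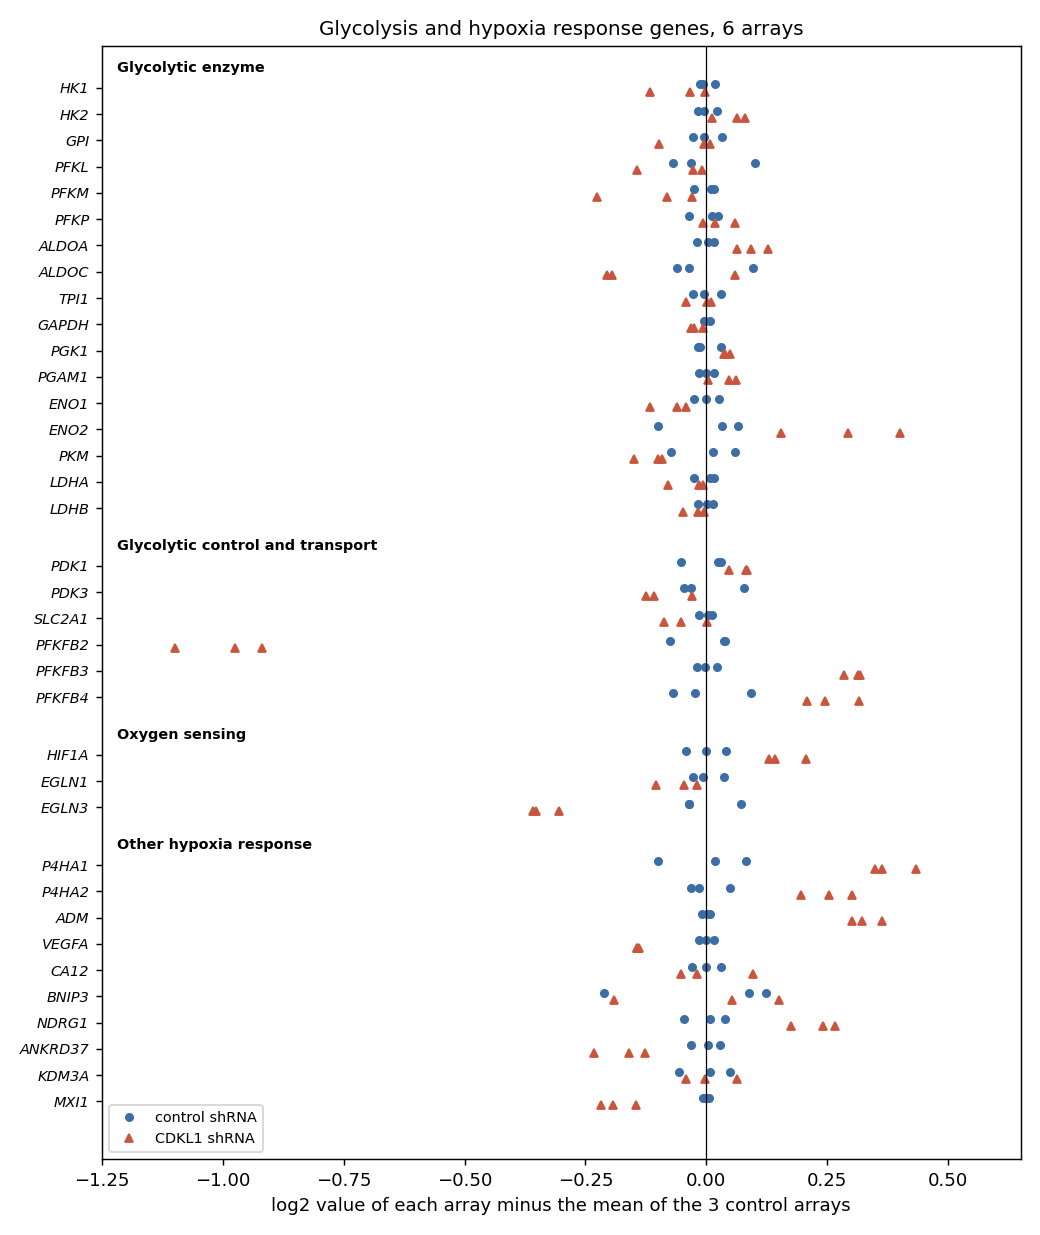
Log2 value of each of the 6 arrays minus the mean of the 3 control arrays (x axis) for the 36 measured genes (y axis, grouped by role), with blue circles for control shRNA and red triangles for CDKL1 shRNA. The triangles of PFKFB2 stand near -1, those of P4HA1, ADM and PFKFB3 well to the right of the circles, and those of most glycolytic enzyme genes among or beside the circles.

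With 1 array left out the count of 12 became 5 when control replicate 3 was left out (10.3% of all genes passed in that fit), 6 for control replicate 2 (10.1%) or CDKL1 shRNA replicate 2 (11.2%), and 7 for CDKL1 shRNA replicate 3 (9.01%), in fits that held fewer arrays. With a trended, robust variance it was 14, ALDOA and HIF1A added, where 23.2% of all genes passed. With the ACTB 3' minus 5' difference of each array as a covariate 1 of the 12 passed (PFKFB2), against 1.21% of all genes. In that fit all 12 had the same direction, their changes were 0.504 to 1.19 times the plain ones, and their standard errors were larger by a median factor of 1.93. The ACTB difference was higher in every CDKL1 shRNA array (1.52 to 1.73) than in any control array (1.39 to 1.41). With the groups apart in this measure, the hairpin and RNA quality cannot be told apart in these arrays.

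In 16 of 17 enzyme genes the change did not pass. Their log2 changes lay between -0.11 and 0.09, and the widest 95% interval of these reached 1.24-fold. The groups did not overlap in 7 of the 17, 3 higher and 4 lower, where 35.7% of all genes did not (18.1% higher, 17.6% lower). The first step, phosphorylation of glucose by hexokinase, had HK1 at a log2 change of -0.05 and HK2 at 0.05. Glucose phosphate isomerase, GPI, had -0.03. The 3 subunit genes of phosphofructokinase, the committed step, had -0.06 for PFKL, -0.11 for PFKM and 0.02 for PFKP (0.02 turned to -0.01 after a further quantile normalisation). The aldolase genes ALDOA and ALDOC, whose products split the sugar into triose phosphates, had 0.09 and -0.11, and the triose phosphate isomerase gene TPI1 had -0.01.

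GAPDH, which oxidises the triose phosphate and is often used as a reference gene, was read at 14.34, 14.35 and 14.34 in control arrays and 14.34, 14.32 and 14.31 in CDKL1 shRNA arrays. All CDKL1 shRNA arrays were just below all control arrays, and the log2 change of -0.02 (95% interval -0.11 to 0.07) did not pass. The separate GAPDH control probe sets gave -0.02 at the 3' end, -0.05 in the middle and -0.09 at the 5' end of the transcript. The next enzymes, PGK1 (0.04, with 9 of 9 probe sets positive) and PGAM1 (0.04), did not pass, nor did the lactate dehydrogenase subunit genes LDHA (-0.03) and LDHB (-0.02). GAPDH and LDHA lay close to the highest value on any array, 14.84, and whether signal near the top of the scale was compressed was not tested.

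Enolase was the exception among the enzyme genes. ENO2, the gamma enolase best known from neurons and neuroendocrine cells, was read at 7.50, 7.37 and 7.53 in control arrays and 7.76, 7.87 and 7.62 in CDKL1 shRNA arrays. All CDKL1 shRNA arrays were higher, and ENO2 rose by 0.28 on the log2 scale (SE 0.0754, limma adjusted p = 0.0431), or 1.22-fold. ENO1, the common alpha enolase, was read at 13.45, 13.40 and 13.42 and at 13.31, 13.38 and 13.36. It was lower in all 3 CDKL1 shRNA arrays by a mean of 0.07, which did not pass (limma, adjusted p = 0.320). The ENO2 call was close to the threshold: it was lost on leaving out any 1 of the 5 arrays other than CDKL1 shRNA replicate 3 (limma adjusted p = 0.0695 to 0.124), and with the ACTB covariate its change was 0.14 (limma, adjusted p = 0.586). The pyruvate kinase gene PKM, for the last step, differed between its probe sets. Its brightest gave -0.11 (limma, adjusted p = 0.180), from 10.78, 10.91 and 10.87 to 10.76, 10.71 and 10.76. Tested over all 44988 probe sets, 3 of its other 5 fell, where 5.34% of all probe sets did, by 0.18, 0.20 and 0.23 (limma adjusted p = 0.0241 to 0.0409), and the remaining 2 lay at 4.63 and 4.59, within the background range. PKM is spliced into isoforms, and the files do not say which of them each probe set reads.

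The promoter of ENO2 is shown because it is the enzyme gene that passed, and because HIF binds the core letters ACGTG or GCGTG. Promoter windows of RefSeq (GRCh38.p14) run from 250 bases before to 50 after each gene's start, and the 250 bases before it are printed here, 5′ to 3′ on the gene's strand, with each match on either strand in capitals (CACGT and CACGC are matches on the opposite strand, and CACGTG, the letters of an E-box, holds ACGTG on both).
ENO2 (chr12:6914330-6914579, plus strand): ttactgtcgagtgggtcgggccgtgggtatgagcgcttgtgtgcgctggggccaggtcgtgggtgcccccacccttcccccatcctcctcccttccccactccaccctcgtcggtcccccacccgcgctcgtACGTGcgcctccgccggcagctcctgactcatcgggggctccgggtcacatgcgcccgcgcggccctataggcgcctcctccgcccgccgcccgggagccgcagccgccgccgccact
The match in ENO2 begins 118 bases before the start. Such letters are common: 48.4% of all 35116 windows held at least 1 match, 67.7% of the 65 windows of the 35 listed genes found in the table, and 9 of 12 windows of the 9 called genes found there. Counted by gene, which favours genes with several windows, the shares were 52.4% of all genes, 91.4% of the listed genes and 77.8% of the called ones. PFKFB2, VEGFA and NDRG1 are not among them. A match is a description of the sequence and does not show binding.

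**Figure D2:**
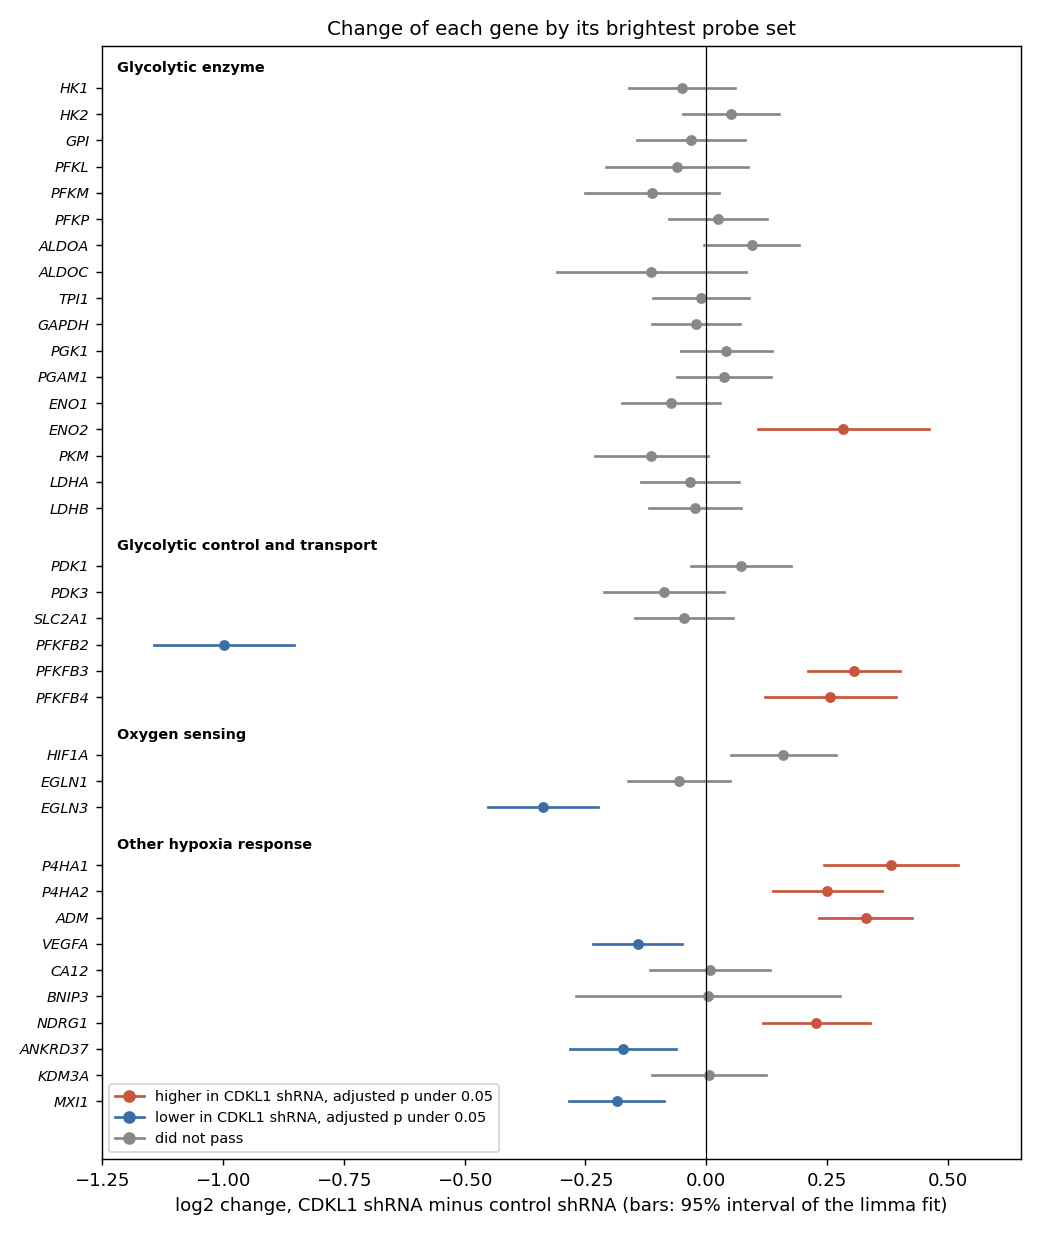
Log2 change of each gene, CDKL1 shRNA minus control shRNA (x axis), by its brightest probe set, with the 95% interval of the limma fit as a bar and genes grouped by role on the y axis. Red marks the 7 genes that rose, blue the 5 that fell and grey the 24 that did not pass. The grey intervals of the glycolytic enzyme genes cluster around 0.

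Genes that set the rate of glycolysis diverged. The PFKFB genes encode enzymes that make and break down the activator of phosphofructokinase. PFKFB2, the form best known from heart, was read at 7.82, 7.93 and 7.93 in control arrays and 6.80, 6.97 and 6.92 in CDKL1 shRNA arrays. The groups stood about 1 log2 unit apart, and PFKFB2 fell by 0.998 (SE 0.0617, limma adjusted p = 0.000207), or 1.998-fold, with an interval from -1.14 to -0.85. PFKFB3, the inducible form with high kinase activity, was read at 9.78, 9.74 and 9.75 and at 10.04, 10.08 and 10.07. Its groups did not overlap, and it rose by 0.31 (SE 0.0403, limma adjusted p = 0.00322). PFKFB4, a hypoxia-inducible form, went from 8.09, 7.92 and 7.97 to 8.20, 8.31 and 8.24, a rise of 0.26 (SE 0.0577, limma adjusted p = 0.0238), also without overlap. So on the brightest probe sets 2 of the PFKFB genes rose and 1 fell.

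These calls rest on 1 probe set each. The other 5 probe sets of PFKFB2 gave -0.13 to 0.04, and 3 of these lay within the background range. For PFKFB3 the other 3 gave -0.17, -0.17 and -0.04, opposite in sign to the brightest, and 0 of them passed over all probe sets. The other 3 of PFKFB4 gave -0.05 to 0.02. When all probe sets of a gene were averaged, PFKFB2 had -0.20 (limma, adjusted p = 0.0662), PFKFB3 -0.02 and PFKFB4 0.06, and none of the 3 passed. PFKFB2 and PFKFB3 passed with any 1 array left out, and PFKFB4 lost its call without replicate 2 or 3 of either group (limma adjusted p = 0.0724 to 0.0797). With the ACTB covariate PFKFB2 had -1.13 and passed, PFKFB3 had 0.29 and PFKFB4 0.17.

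RefSeq lists 2 promoter windows for PFKFB3, shown here because its probe sets disagreed, together with that of PFKFB4.
PFKFB3 start 1 (chr10:6144671-6144920, plus strand): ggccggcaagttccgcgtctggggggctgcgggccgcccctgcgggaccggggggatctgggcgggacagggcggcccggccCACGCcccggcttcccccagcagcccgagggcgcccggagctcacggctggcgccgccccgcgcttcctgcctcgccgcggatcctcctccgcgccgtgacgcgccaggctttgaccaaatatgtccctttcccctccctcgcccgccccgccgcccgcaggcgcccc
PFKFB3 start 2 (chr10:6202682-6202931, plus strand): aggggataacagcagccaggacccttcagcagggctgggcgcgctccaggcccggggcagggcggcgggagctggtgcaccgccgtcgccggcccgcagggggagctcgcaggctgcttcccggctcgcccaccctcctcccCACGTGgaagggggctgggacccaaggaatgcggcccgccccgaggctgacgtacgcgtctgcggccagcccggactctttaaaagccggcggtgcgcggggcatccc
PFKFB4 (chr3:48556804-48557053, minus strand): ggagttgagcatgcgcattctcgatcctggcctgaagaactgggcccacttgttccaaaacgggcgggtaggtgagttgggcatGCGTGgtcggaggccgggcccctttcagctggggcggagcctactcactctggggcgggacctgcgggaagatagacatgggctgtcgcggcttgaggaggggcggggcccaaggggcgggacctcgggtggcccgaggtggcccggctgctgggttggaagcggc
Start 1 of PFKFB3 has a single GCGTG on the opposite strand, beginning 168 bases before the start, and start 2 has CACGTG beginning 108 bases before it. PFKFB4 has GCGTG at 166 bases before its start. The files do not say which start a probe set follows.

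The remaining control and transport genes did not pass. The glucose transporter gene SLC2A1 had -0.05, with arrays at 11.98, 11.96 and 11.99 against 11.89, 11.93 and 11.98, which overlap. PDK1 and PDK3, whose products restrain pyruvate dehydrogenase, had 0.07 and -0.09. The second probe set of PDK1, dim at a mean level of 5.90 beside 9.11 for the brightest, was called higher over all probe sets (limma, adjusted p = 0.0282). Of all probe sets 7.43% rose. The mean of both PDK1 probe sets gave 0.17 (limma, adjusted p = 0.0280).

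Of the oxygen sensing genes, HIF1A, the regulated HIF subunit, missed the threshold on its brightest probe set and passed on most others. That probe set was read at 11.88, 11.96 and 11.92 in control arrays and 12.13, 12.06 and 12.05 in CDKL1 shRNA arrays, a log2 change of 0.16 without overlap (SE 0.0459, limma adjusted p = 0.0555). Its 7 dimmer probe sets had mean levels from 8.05 to 9.88 and gave 0.33 to 0.50, all 7 without overlap, and 6 of them rose when all probe sets were tested, where 7.43% of all probe sets rose (limma adjusted p = 0.00584 to 0.0223). The brightest of these went from 9.66, 9.72 and 9.70 to 9.98, 10.10 and 10.12. The mean of all 8 probe sets rose by 0.36 (limma, adjusted p = 0.00574). HIF1A also passed when only genes above the median level were tested (limma, adjusted p = 0.00957, where 44.0% of genes passed). Probe sets of a gene share its RNA and are not replicates. HIF is regulated mainly through the stability of its protein, which these arrays do not measure.

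EGLN3, a prolyl hydroxylase gene that is itself a widely used marker of HIF activity, was read at 7.71, 7.60 and 7.60 in control arrays and 7.28, 7.29 and 7.34 in CDKL1 shRNA arrays. No array of either group reached the other, and EGLN3 fell by 0.34 (SE 0.0485, limma adjusted p = 0.00432), also with any 1 array left out. Its other probe sets gave -0.24 and, within the background range, 0.03. The mean of all 3, at -0.19, did not pass (limma, adjusted p = 0.113). EGLN1, the main hydroxylase acting on HIF in cells with oxygen, had -0.06, from 10.05, 10.07 and 10.11 to 9.97, 10.03 and 10.05, which overlap. The promoter of EGLN3 is shown as that of a HIF-responsive gene that fell.
EGLN3 (chr14:33951075-33951324, minus strand): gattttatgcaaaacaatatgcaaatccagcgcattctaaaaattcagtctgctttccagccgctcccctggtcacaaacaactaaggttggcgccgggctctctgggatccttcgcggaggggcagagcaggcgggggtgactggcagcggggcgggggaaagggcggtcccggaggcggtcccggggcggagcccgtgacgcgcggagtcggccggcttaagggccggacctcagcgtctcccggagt
Neither ACGTG nor GCGTG occurs in this window of EGLN3, which says nothing of sites elsewhere in the gene.

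**Figure D3:**
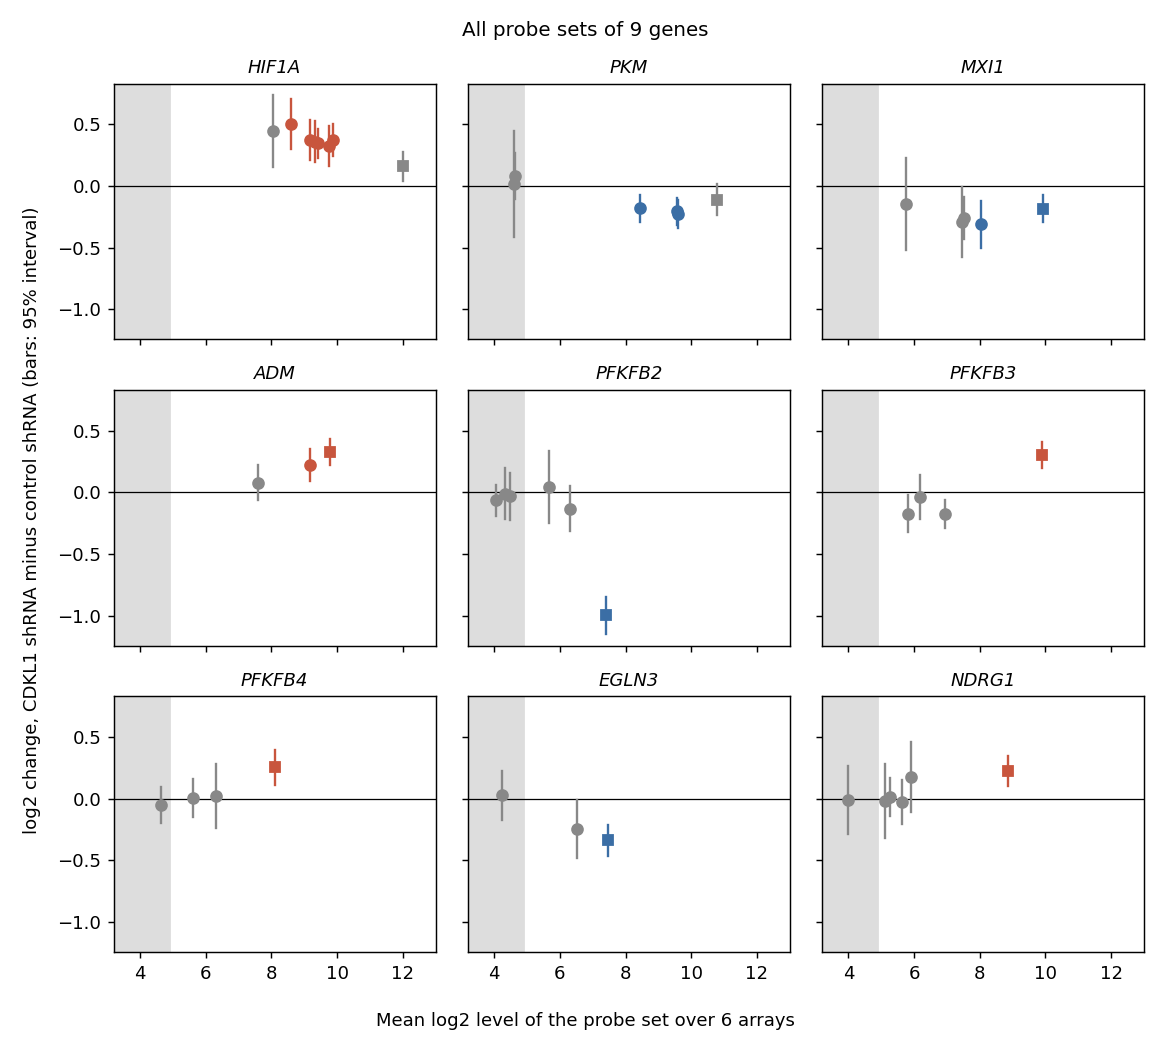
Log2 change of every probe set of 9 genes (y axis, with 95% intervals) against its mean log2 level over the 6 arrays (x axis). Squares are the brightest probe sets, and red and blue mark probe sets that rose or fell when all probe sets were tested. The grey band is the range of background controls with up to 16 G or C bases, which ends at 4.92. Background controls with more G or C bases read higher, up to 10.74 at 25. All 8 probe sets of HIF1A and all 5 of MXI1 lie on one side of 0, whereas those of PFKFB3 lie on both sides.

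Genes downstream in the hypoxia response split into 4 that rose, 3 that fell and 3 that did not pass. P4HA1 and P4HA2 encode the catalytic subunits of collagen prolyl hydroxylase, which modifies collagen chains in the endoplasmic reticulum. P4HA1 was read at 9.84, 10.02 and 9.96 in control arrays and 10.29, 10.30 and 10.37 in CDKL1 shRNA arrays, and rose by 0.38 (SE 0.0588, limma adjusted p = 0.00582), the largest rise of the 36 genes. P4HA2 went from 10.75, 10.67 and 10.69 to 10.90, 11.004 and 10.96, a rise of 0.25 (SE 0.0483, limma adjusted p = 0.0137). Both had all CDKL1 shRNA arrays above all control arrays, and each was read by a single probe set. ADM, the gene of the vasodilator peptide adrenomedullin, went from 9.61, 9.63 and 9.62 to 9.92, 9.98 and 9.94 and rose by 0.33 (SE 0.0411, limma adjusted p = 0.00259). Its 3 probe sets were all positive, at 0.33, 0.23 and 0.08. NDRG1, a stress-responsive gene linked to differentiation, went from 8.72, 8.80 and 8.77 to 9.03, 9.002 and 8.94, a rise of 0.23 (SE 0.0471, limma adjusted p = 0.0179), while its other 5 dimmer probe sets gave -0.02 to 0.18 and the mean of all 6 did not pass (0.06, limma adjusted p = 0.457).

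The genes that fell changed by less. MXI1, whose product antagonises MYC, was read at 10.01, 10.02 and 10.02 in control arrays and 9.87, 9.82 and 9.80 in CDKL1 shRNA arrays. It fell by 0.19 (SE 0.0418, limma adjusted p = 0.0241), and each of its 5 probe sets pointed down, by 0.15 to 0.31, although their mean, at -0.24, did not pass (limma, adjusted p = 0.0596). ANKRD37, a small ankyrin repeat gene and HIF target, went from 8.69, 8.75 and 8.73 to 8.49, 8.56 and 8.60, a fall of 0.17 (SE 0.0467, limma adjusted p = 0.0452). VEGFA, the angiogenic growth factor gene, went from 10.73, 10.74 and 10.71 to 10.59, 10.59 and 10.58. Its groups were apart by more than their spread (SD 0.0160 and 0.00255, n = 3 each), and it fell by 0.14 (SE 0.0391, limma adjusted p = 0.0482). Of its 10 probe sets 6 were negative, 0 passed over all probe sets, and their mean had -0.02.

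BNIP3, a mitophagy receptor gene, had a change of 0.004 with an interval from -0.27 to 0.28, from 6.36, 6.39 and 6.06 to 6.32, 6.42 and 6.08. The histone demethylase gene KDM3A had 0.01, with arrays of 9.48, 9.55 and 9.59 and of 9.498, 9.60 and 9.54, and the carbonic anhydrase gene CA12 had 0.01, from 6.52, 6.48 and 6.46 to 6.47, 6.58 and 6.43. The arrays of both groups overlap in all 3 genes. These signs turned under 1 or more alternatives and carry no direction. One dimmer probe set of CA12, at a mean level of 5.95, rose by 0.32 over all probe sets (limma, adjusted p = 0.0241), where 7.43% of all probe sets rose.

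P4HA1 and ADM passed with any 1 array left out. P4HA2 lost its call without replicate 3 of either group or control replicate 2 (limma adjusted p = 0.0525 to 0.0546), and NDRG1 without control replicate 3 or replicate 1 or 2 of CDKL1 shRNA (0.0575 to 0.0583). MXI1 lost it without replicate 2 or 3 of either group (limma adjusted p = 0.0740 to 0.0911), and VEGFA (0.0790 to 0.143) and ANKRD37 (0.0630 to 0.136) without any 1 of the 6 arrays. Once array medians had been subtracted, the falls of VEGFA, ANKRD37 and MXI1 no longer passed (limma adjusted p = 0.116, 0.0955 and 0.0530). With the ACTB covariate the changes were 0.39 for P4HA1, 0.17 for P4HA2, 0.28 for ADM and 0.22 for NDRG1, and none of the 7 genes passed.

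Promoters are shown for genes that rose with and without a match, P4HA1 and P4HA2, for ADM, and for ANKRD37, which fell and has 3 matches.
P4HA1 (chr10:73096867-73097116, minus strand): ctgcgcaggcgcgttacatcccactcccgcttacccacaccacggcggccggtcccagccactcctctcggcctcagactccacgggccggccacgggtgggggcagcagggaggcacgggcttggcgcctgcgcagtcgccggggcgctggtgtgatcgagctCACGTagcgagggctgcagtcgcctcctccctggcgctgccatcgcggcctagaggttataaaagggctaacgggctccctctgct
P4HA2 (chr5:132227092-132227341, minus strand): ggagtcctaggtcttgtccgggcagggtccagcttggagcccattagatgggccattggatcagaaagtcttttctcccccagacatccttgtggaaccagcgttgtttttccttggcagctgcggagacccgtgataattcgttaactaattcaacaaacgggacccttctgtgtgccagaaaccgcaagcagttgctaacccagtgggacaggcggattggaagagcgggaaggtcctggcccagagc
ADM (chr11:10304823-10305072, plus strand): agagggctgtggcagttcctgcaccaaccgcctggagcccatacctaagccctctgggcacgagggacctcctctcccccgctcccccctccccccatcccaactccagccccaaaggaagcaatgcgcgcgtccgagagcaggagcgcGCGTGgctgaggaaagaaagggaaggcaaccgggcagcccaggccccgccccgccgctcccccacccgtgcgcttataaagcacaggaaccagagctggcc
ANKRD37 (chr4:185396591-185396840, plus strand): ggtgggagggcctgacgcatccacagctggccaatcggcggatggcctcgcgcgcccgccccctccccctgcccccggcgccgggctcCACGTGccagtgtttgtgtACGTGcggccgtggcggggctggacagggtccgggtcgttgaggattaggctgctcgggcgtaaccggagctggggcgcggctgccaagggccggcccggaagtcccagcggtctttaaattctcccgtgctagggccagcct
P4HA1 has ACGTG on the opposite strand beginning 86 bases before the start, ADM has GCGTG at 101 bases, and ANKRD37 has CACGTG at 162 bases and ACGTG at 143 bases. P4HA2, which rose with P4HA1, has none in this window. Matches thus occur among both risen and fallen genes of this set.

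**Figure D4:**
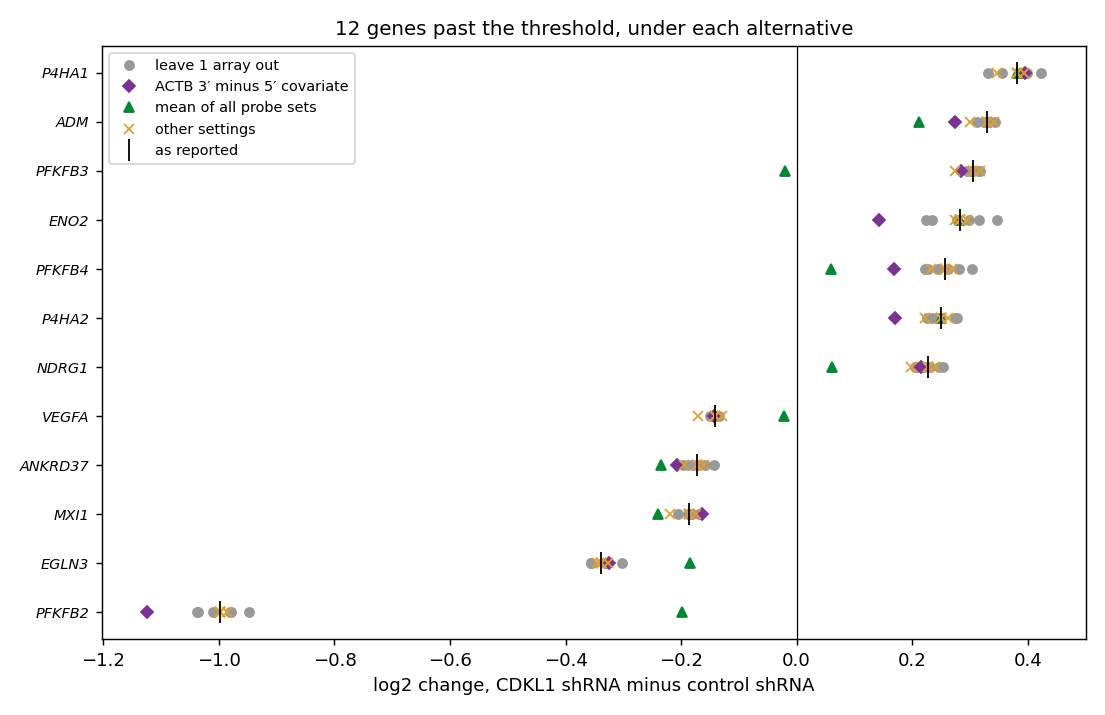
Log2 change (x axis) of the 12 genes that passed (y axis) as reported (black bar), with 1 array left out (grey), with the ACTB covariate (purple), as the mean of all probe sets (green) and under 6 other settings (orange). The green triangles of PFKFB2 and PFKFB3 stand far from the black bars, at -0.20 and -0.02, and the remaining settings keep each gene on its side of 0.

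Genes of wider lists of the same pathways, which hold none of the 38 genes, moved in both directions. Of 103 measured genes in 3 lists 14 rose and 11 fell, or 24.3% against 16.8% of all genes, with a median log2 change of 0.02. These lists too were chosen with earlier results of these data known, so their counts are no test and no independent support. Of the 103, 7 lay within the background range, against 3232 of all 18132 genes, so the shares are not matched for level. The counts of called genes in these lists were 16 when control replicate 1 was left out (13.2% of all genes passed in that fit), 16 for CDKL1 shRNA replicate 2 (11.2%), 15 for control replicate 2 (10.1%) and 13 for CDKL1 shRNA replicate 3 (9.01%). With the ACTB covariate 2 passed (1.21% of all genes).

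Among further glycolysis and pyruvate genes 4 of 42 rose, 2 fell and 36 did not pass, so that 14.3% were called, below the 16.8% of all genes. MPC1, a subunit of the carrier that brings pyruvate into mitochondria, went from 9.59, 9.87 and 9.79 to 10.32, 10.25 and 10.35, a rise of 0.55 (SE 0.0773, limma adjusted p = 0.00386). PDHX, a structural component of pyruvate dehydrogenase, rose by 0.31 (SE 0.0453), MYC by 0.24 (SE 0.0399) and the ADP-dependent glucokinase gene ADPGK by 0.18 (SE 0.0459). The glucose transporter gene SLC2A12 fell by 0.43 (SE 0.0559) and the testis lactate dehydrogenase gene LDHC by 0.33 (SE 0.0696). Both were dim, at mean levels of 5.88 and 5.57, where background controls with 18 G or C bases read 5.95. ADPGK lost its call without any 1 array (limma adjusted p = 0.0704 to 0.126) and LDHC without control replicate 1 (limma, adjusted p = 0.0535).

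Of 18 further HIF regulators 2 rose and 3 fell, or 27.8% against 16.8% of all genes. ARNT2, a partner subunit of HIF, went from 7.60, 7.55 and 7.62 to 7.15, 7.16 and 7.21, a fall of 0.42 (SE 0.0445, limma adjusted p = 0.00138). VHL, the ubiquitin ligase component that recognises hydroxylated HIF, fell by 0.24 (SE 0.0514) and EPAS1, which encodes a second regulated HIF subunit, by 0.23 (SE 0.0545). ELOC, which joins VHL in the ligase, rose by 0.22 (SE 0.0514), and the ubiquitin ligase gene SIAH2 rose by 0.18 (SE 0.0425). Calls were lost without any 1 array for SIAH2 (limma adjusted p = 0.0536 to 0.0965). For ELOC they were lost without every array but control replicate 3 (limma adjusted p = 0.0517 to 0.0795). VHL was lost without replicate 2 or 3 of either group (0.0605 to 0.0708), and EPAS1 without control replicate 1 or 3 or CDKL1 shRNA replicate 2 or 3 (0.0733 to 0.0985). The mean of all probe sets of ARNT2 had -0.15 and did not pass (limma, adjusted p = 0.130).

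Of 43 further hypoxia response genes 8 rose and 6 fell, or 32.6% against 16.8% of all genes, and 29 did not pass. DDIT4, which restrains the growth kinase mTOR under stress, was read at 11.67, 11.70 and 11.74 in control arrays and 10.73, 10.67 and 10.75 in CDKL1 shRNA arrays. It fell by 0.99 (SE 0.0455, limma adjusted p = 0.000105), or 1.98-fold. TMEM45A, a transmembrane protein gene, went from 6.40, 6.36 and 6.32 to 7.25, 7.20 and 7.33, a rise of 0.90 (95% interval 0.78 to 1.02, limma adjusted p = 0.000157). HILPDA, a lipid droplet protein gene, rose by 0.37 (SE 0.0391), the sterol sensor partner gene INSIG2 by 0.50 (SE 0.0553) and the glycogen branching enzyme gene GBE1 by 0.37 (SE 0.0497). The nuclear receptor gene RORA fell by 0.35 (SE 0.0649), ZNF395 by 0.20 (SE 0.0438) and the mitochondrial adenylate kinase gene AK4 by 0.19 (SE 0.0416). AK4 lost its call without any 1 array (limma adjusted p = 0.0540 to 0.0798), RORA without CDKL1 shRNA replicate 3 (limma, adjusted p = 0.0523), and ZNF395 without control replicate 1 or 2 or CDKL1 shRNA replicate 2 or 3 (0.0514 to 0.0739).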

How the data were processed

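Total RNA of DLD1 cells was prepared with TRIzol and labelled as biotinylated cRNA, per the labels' protocols. The deposited table holds log2 values for 49395 probe sets on 6 arrays, made by the authors with RMA per the submitters' processing notes (no version is given in the sources used here). This method assumes that most genes do not change and compresses dim signals. Probe sets were named through the platform annotation: 44988 had 1 symbol, 1832 several and 2473 none, and 102 controls were left out. Groups were compared with limma 3.58.1 in R 4.3.3 (lmFit, eBayes, two-sided), with Benjamini-Hochberg adjustment over 18132 genes, and tested on simulated data. The simulation first drew its noise from raw gene variances and missed the share of changed genes it was set to recover. The noise was then drawn from limma's moderated variances, with which it passed. Recovery thus depends on that choice and was lower with raw variances. The share was set only for changes about as large as that of PFKFB2. Passing therefore says nothing of recovery at the smaller changes of the other called genes of the set. No label says whether samples came from separate cultures, so p-values reflect only the spread among these samples, possibly a technical one. The alternatives were a replicate block, each array left out, other scalings, probe set rules, a dim-gene filter, an RNA quality covariate and another variance model. All 38 genes are accounted for. In the wider lists up to 4 called genes per direction, with the smallest adjusted p, are named. Members and lists were chosen with earlier results of these data known. Probe sets ending in _s or _x can bind related transcripts. With 3 arrays per group, their number limits the precision. Promoter windows came from RefSeq. The genes whose promoters are printed, and those in the plot of single probe sets, were chosen after their values were seen. Figures used Python 3.11.15, pandas 2.3.3 and matplotlib 3.10.9.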

Additional observations from a re-analysis of the deposited data

How the results depend on the processing

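Directions of the 12 called genes were kept under all 14 alternatives, except PFKFB3 with all probe sets averaged (-0.0194). All 12 stayed called with a further quantile normalisation (17.8% of all genes passed) and with a trended, robust variance (23.2%). All 12 also did when only genes above the median level were tested (44.0% of those passed). Each of these shares was above the 16.8% of the main fit, so these settings were no stricter than it. Of the 12, 9 stayed called with array medians subtracted (15.3% of all genes passed) or with every probe set tested (12.8% of probe sets) and 1 with the ACTB covariate (1.21%). Averaging every gene's probe sets (16.3%) left 5 of the 12 called, and PDK1 and HIF1A were added, for a count of 7. With 1 array left out the count was 5 to 9, that of the wider lists 13 to 19 (main 25), that of all genes 1633 to 2399 (main 3040) and the CDKL1 change -0.29 to -0.12. When every probe set was tested, 5743 of 44988 probe sets were called, and several of them can belong to 1 gene. The ACTB covariate gave 219 called genes among all genes and 2 in the wider lists. Whether same-numbered samples were paired is not given in the labels. Deviations of same-numbered arrays correlated at -0.03, -0.12 and 0.07, and those of differently numbered arrays at -0.10 to 0.12. Such correlations cannot show whether cultures were shared. With the replicate number as a block the counts were 1803 for all genes (9.94%), 5 for the 36 measured genes and 13 for the 103 of the wider lists. In that fit ENO2, PFKFB4, P4HA2, VEGFA, NDRG1, ANKRD37 and MXI1 lost their calls. Signs of small, uncalled changes reversed. With 1 array left out the log2 change ran from -0.0518 to 0.0017 for GPI, -0.024 to 0.0056 for TPI1, -0.0362 to 0.0385 for CA12, -0.1022 to 0.1014 for BNIP3 and -0.022 to 0.0307 for KDM3A. Quantile normalisation gave -0.0135 for PFKP and -0.0181 for KDM3A, subtracted medians 0.0016 for TPI1, and averaged probe sets -0.0242 for KDM3A. The ACTB covariate gave 0.0105 for LDHB, -0.1207 for CA12, -0.2163 for BNIP3 and -0.0762 for KDM3A. The causes were not tested. RMA signal near background limits the dim probe sets.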
